A study of Mus musculus with 48 samples.

Results

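The proteasome gene family was taken from the mouse annotation (GENCODE M21) as every protein-coding gene whose symbol starts with Psm, a letter from a to g and a number, leaving out Psmb8 and Psmb9. This rule found 48 of the 48709 genes in the deposited count tables. By role, 8 genes encode alpha-ring and 8 beta-ring proteins of the 20S core, 1 (Psmb10) an inducible beta subunit, 6 the ATPases and 11 the other subunits of the 19S cap, 3 chaperones of 19S assembly, 4 chaperones of 20S assembly, 5 alternative activators and 1 the regulator PI31. The last match, Psmc3ip, is no proteasome subunit but a protein of meiotic recombination, and it is kept apart in the text.

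The proteasome is the protease that degrades proteins marked with ubiquitin. Its barrel-shaped 20S core holds the catalytic sites inside the beta rings, on the subunits encoded by Psmb5, Psmb6 and Psmb7, and the 19S cap binds the ubiquitin chain, unfolds the substrate and feeds it into the core. Under interferon signalling, cells, and in the brain above all microglia, replace the catalytic subunits by Psmb8, Psmb9 and Psmb10 and cap the core with the Psme1-Psme2 ring, which favours the production of antigenic peptides.

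RNA sequencing of whole tissue from C57BL/6J mice was used. The dentate gyrus was sampled from wild-type and constitutive Fmn2 knockout (Fmn2-/-) mice at 3 months (5 and 5 mice) and at 8 months (3 and 5 mice). A cross with the amyloid model APPPS1-21, which expresses mutant human amyloid precursor protein and presenilin 1 in neurons under the Thy1 promoter, gave 7 mice with the genotype label FMN2-/-_APP and 9 with the label FMN2 +/+ APP, all labelled as 3 months old and dentate gyrus, without a group that lacks the transgene. The last experiment held 6 APP and 6 wild-type mice labelled as 4 months old, whose titles name the prefrontal cortex (PFC) while the tissue field names the dentate gyrus. Whole tissue holds many cell types, and fewer cells of a type cannot be told apart from less RNA per cell.

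Fmn2 itself was the check of the labels. Levels are given in CPM, read counts scaled to a common library size with TMM factors over all samples. Fmn2 was at 102.5 ± 7.4 CPM (SD, n = 5) in 3-month-old wild-type and 24.8 ± 2.39 (SD, n = 5) in Fmn2-/- mice, and at 90.9 ± 15.2 (SD, n = 3) and 24.3 ± 2.68 (SD, n = 5) at 8 months. In the amyloid cross the libraries labelled FMN2-/-_APP had 90.9 ± 6.86 CPM (SD, n = 7) and those labelled FMN2 +/+ APP 20.5 ± 1.48 (SD, n = 9), which goes against the labels, so the 2 sets are called by their label throughout and no genotype is read from them. The titles hold the letter W in every library labelled FMN2-/-_APP and the letter K in every library labelled FMN2 +/+ APP, and the labels do not say what the letters mean. The libraries with PFC in the title had 603 to 649 CPM summed over 7 cortical neuron markers in wild-type mice, against 196 to 337 in the 3-month-old dentate gyrus, and 137 to 169 CPM over 7 granule cell markers, against 677 to 873. Their markers thus go with the titles and not with the tissue field. Depth ranged from 6818809 to 43921030 counted reads per library, and both extremes lie in the 8-month-old wild-type group. Replicates 2 and 3 of the 8-month-old Fmn2-/- mice differed by a chi-square of 1.58 per degree of freedom. Repeat runs of the same mouse in the cross gave higher values, 1.66 and 2.05. The replicates held 9175551 and 9943023 reads and the repeat runs 13956011 to 27160440, and greater depth can raise this chi-square. Counts of members that rest on replicates 2 and 3 are also given with both summed as 1 sample.

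RefSeq promoters (GRCm38.p6, 250 bases before to 50 after the gene start) were at hand for 40 of the 48 genes. Those of 4 genes are shown, the core subunit Psmb6 and the 19S chaperone Psmd9 since their genotype difference changed with age, the activator subunit Psme1 since it rose in the APP mice, and the alpha-ring subunit Psma4 since it was among the strongest differences between tissues. Capitals mark matches on either strand to 6 motifs: the GC box GGGCGG, the CCAAT box CCAAT, the ETS site CCGGAAG, the antioxidant response element core TGACNNNGC, the core of the interferon-stimulated response element GAAANNGAA and the TATA box TATAAA. The windows lie at chr11:70525107-70525406 (Psmb6), chr5:123227940-123228239 (Psmd9), chr14:55578244-55578543 (Psme1) and chr9:54950609-54950908 (Psma4), all on the plus strand.
Psmb6: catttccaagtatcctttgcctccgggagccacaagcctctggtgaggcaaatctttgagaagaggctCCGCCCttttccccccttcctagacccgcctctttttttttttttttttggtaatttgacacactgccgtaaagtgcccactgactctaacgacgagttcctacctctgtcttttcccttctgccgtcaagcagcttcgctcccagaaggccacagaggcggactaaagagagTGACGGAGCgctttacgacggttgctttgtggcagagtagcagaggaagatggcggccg
Psmd9: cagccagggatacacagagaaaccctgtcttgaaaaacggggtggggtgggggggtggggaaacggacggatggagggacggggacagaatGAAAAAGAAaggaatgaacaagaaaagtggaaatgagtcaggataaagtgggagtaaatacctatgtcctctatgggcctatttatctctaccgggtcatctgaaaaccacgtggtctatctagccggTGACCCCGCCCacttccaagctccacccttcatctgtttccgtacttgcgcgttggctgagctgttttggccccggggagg
Psme1: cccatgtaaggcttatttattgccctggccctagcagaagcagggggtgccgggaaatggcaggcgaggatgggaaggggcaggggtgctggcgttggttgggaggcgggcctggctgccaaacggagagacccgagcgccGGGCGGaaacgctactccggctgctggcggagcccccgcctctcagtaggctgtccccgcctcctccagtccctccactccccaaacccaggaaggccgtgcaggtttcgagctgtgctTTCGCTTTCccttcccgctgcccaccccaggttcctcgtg
Psma4: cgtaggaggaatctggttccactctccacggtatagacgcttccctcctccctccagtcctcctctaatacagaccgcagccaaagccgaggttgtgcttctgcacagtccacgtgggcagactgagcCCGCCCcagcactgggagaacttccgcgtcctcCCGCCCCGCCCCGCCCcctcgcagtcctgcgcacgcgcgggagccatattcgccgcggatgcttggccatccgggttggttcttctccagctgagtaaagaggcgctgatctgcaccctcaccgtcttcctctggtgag

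The Psmb6 window holds 1 GC box and, nearer to the start, 1 antioxidant response core. The Psmd9 window holds 1 antioxidant response core that overlaps its GC box and 1 interferon core, Psme1 1 GC box and 1 interferon core, and Psma4 4 GC boxes. Over the family, 22 of 40 genes had a GC box (55%, against 35.7% of 32851 RefSeq promoters), 15 the ETS site (37.5% against 8.86%), 14 a CCAAT box (35% against 37.4%), 6 the antioxidant response core (15% against 12.4%), 7 the interferon core (17.5% against 8.56%) and 3 a TATA box (7.5% against 13.6%). The family shares count genes, while the RefSeq shares count single promoters. A gene with several promoters would have more chances of a match, so these shares are not directly comparable and no enrichment is read from them. A match describes the letters in the window and is not evidence of binding.

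In the dentate gyrus of 3-month-old wild-type mice the 16 core genes summed to 1131 ± 30.9 CPM and the 17 genes of the 19S cap to 1984 ± 13.1 CPM (SD, n = 5). Per kilobase of exon, the alpha-ring genes ran from Psma6 at 83.3 to Psma8 at 0.180 CPM, and the beta-ring genes from Psmb2 at 76.9 to Psmb11 at 0.230 CPM. Psma8 belongs to the proteasome of male germ cells and Psmb11 to that of the thymic cortex, and both were near the limit of detection here, with 7 to 19 and 23 to 30 counts per library. Among the catalytic subunits, Psmb6 had 58.1, Psmb7 25.3 and Psmb5 15.3 CPM per kilobase, close to the inducible Psmb10 at 15.8. The other inducible subunits were far lower, Psmb8 at 0.447 and Psmb9 at 0.269 CPM per kilobase.

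The 19S ATPases ran from Psmc5 (103.3 CPM per kilobase) to Psmc2 (28.6) and the other 19S subunits from Psmd7 (56.0) to Psmd11 (8.15). Among the 19S chaperones Psmd10 was highest (13.0) and Psmd9 lowest (2.99), and among those of the core Psmg4 (11.5) and Psmg3 (1.75). The place of Psmd9 rests on its annotated 7248 exon bases, since in CPM it was at 21.7, against 19 for Psmd10. Its M21 start (chr5:123169413) lies far before its RefSeq window. Of the activators, Psme3, which caps the core in the nucleus, had 43.9 CPM per kilobase, and Psme2b, a near-identical copy of Psme2 whose reads may be lost or shared in counting, had 0.168. Psmf1, the PI31 gene, had 5.55 and Psmc3ip 2.00 CPM per kilobase. Several members are neighbours in the genome: Psmb5 and Psmb11 lie 3.41 kb apart on chromosome 14, Psme1 and Psme2 5.91 kb apart on the same chromosome.

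**Figure D1:**
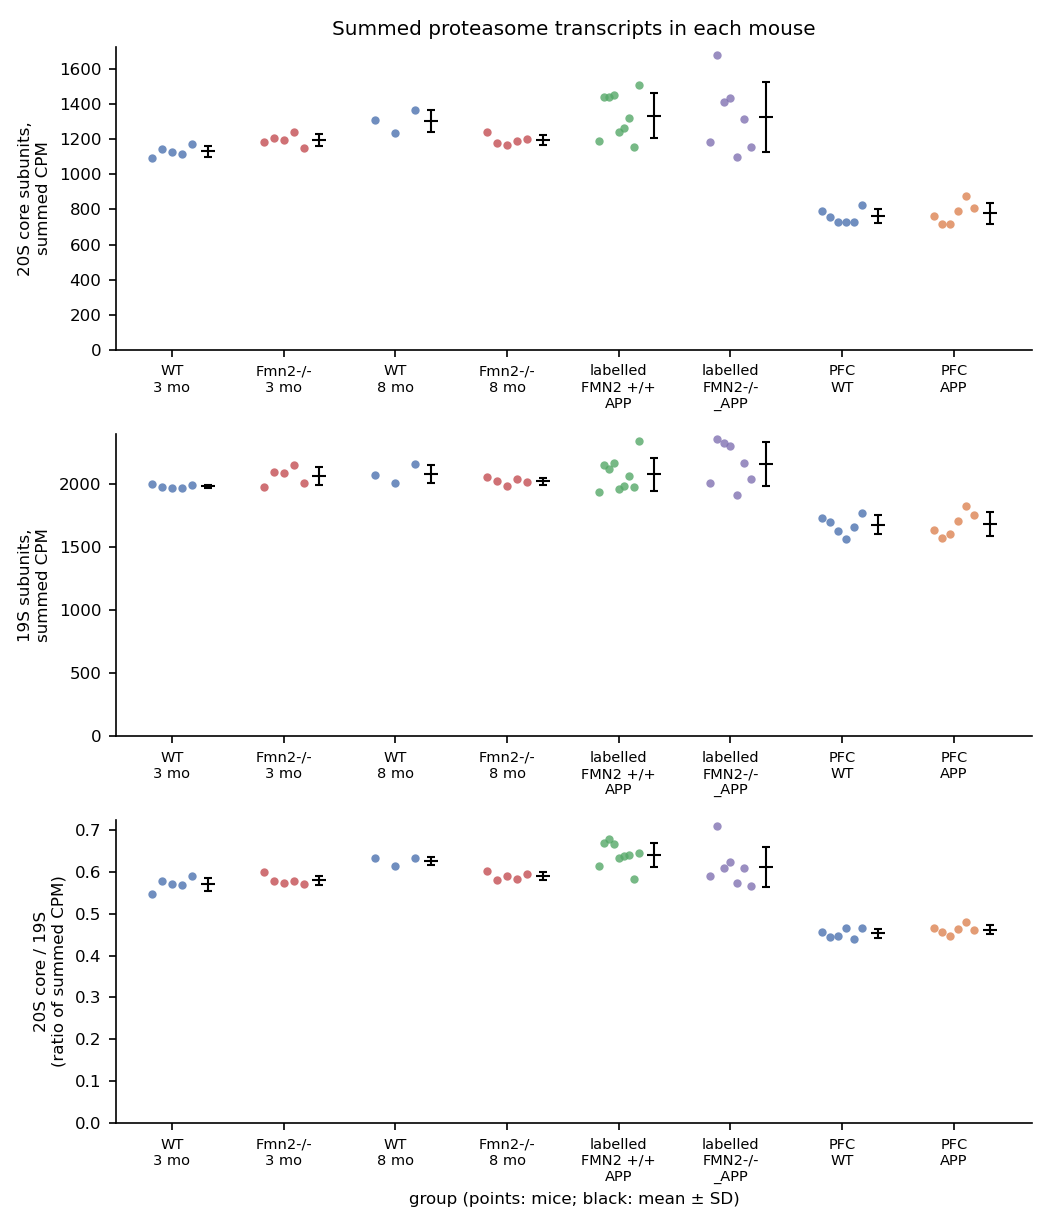
Summed CPM of the 16 core genes (top), of the 17 genes of the 19S cap (middle) and the ratio of both sums (bottom) in each mouse of the 8 groups, with the group mean ± SD in black. The core sum lies between 1091 and 1174 CPM in 3-month-old and between 1236 and 1365 CPM in 8-month-old wild-type mice, and between 730 and 827 CPM in the wild-type libraries with PFC in the title.

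Loss of Fmn2 at 3 months was set against wild type with edgeR's quasi-likelihood test and Benjamini-Hochberg adjustment over all genes tested. Most proteasome genes were slightly above their wild-type level, 38 of the 47 tested with a median log2 fold change of 0.08 (0.0041 over all genes), and none passed an adjusted p of 0.05, where 0.0361% of all genes did (Psme2b was too low to test). At an unadjusted p under 0.05 there were 12, all higher, beside 10.4% of all genes in either direction (1047 of 16630 higher). In 8 members every Fmn2-/- mouse lay above every wild-type mouse, beside 2.13% of all genes (none lay below, beside 0.583%). With DESeq2 instead of edgeR 3 members passed, all higher (Psmb4, Psmc5 and Psmg3), beside 142 of all genes in place of 6. By role, all 8 beta-ring genes (0.026 to 0.36 on the log2 scale) and all 4 core chaperones (0.093 to 0.40) were above 0, as were 7 of 8 alpha-ring genes (-0.025 to 0.17), 4 of 6 ATPases (-0.027 to 0.18) and 8 of 11 other cap subunits (-0.14 to 0.15).

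Psmb4, a beta subunit with no catalytic site, had the smallest p. It was at 99.4, 105.9, 103.5, 103.3 and 106.9 CPM in the wild-type mice and at 110.6, 122.8, 127.1, 127.0 and 136.7 CPM in the Fmn2-/- mice (0.26 on the log2 scale with a standard error of 0.0553, edgeR adjusted p = 0.138). The groups did not overlap, and the lowest Fmn2-/- mouse is the only one sequenced on the lane of the wild-type mice. The core chaperone Psmg3 was at 4.79 to 5.55 CPM in wild-type and 6.01 to 7.61 in Fmn2-/- mice (log2 fold change 0.40, standard error 0.0975, adjusted p = 0.203). Psmc5, an ATPase of the cap, was at 141.2 to 146.9 against 153.9 to 171.9 CPM (0.18, adjusted p = 0.203), and neither gene overlapped between the groups.

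Of the catalytic subunits, Psmb5 went from 13.7 ± 1.28 to 17.7 ± 2.37 CPM (SD, n = 5 each; log2 fold change 0.36, edgeR adjusted p = 0.269) and its groups overlapped through Fmn2-/- replicate 1 at 13.7 CPM. Psmb6 was at 104.5 to 116.7 CPM in wild-type and 118.7 to 121.6 CPM in Fmn2-/- mice, without overlap (0.14, adjusted p = 0.314). Psmb7 was at 0.037 (standard error 0.0518, adjusted p = 0.838) and Psmb10 at 0.14 (standard error 0.0799, adjusted p = 0.572). The other members with the smallest p were Psmd13 (0.15, adjusted p = 0.292) and Psmg4 (0.29, adjusted p = 0.305). None of 32 partner genes of the pathway passed (ubiquitin, its carriers, receptors and deubiquitinases, the inducible Psmb8 and Psmb9, and regulators of proteasome synthesis). Among those with the smallest p were the shuttle gene Rad23b (-0.17, adjusted p = 0.314), the autophagy receptor gene Sqstm1 (0.15, adjusted p = 0.335) and Pomp, the maturation factor of the core (0.15, adjusted p = 0.405).

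Without Fmn2-/- replicate 1 of 3 months, 2 members passed in place of none, Psmb4 and Psmb5. With lane as a covariate the genotype difference rests on the 1 Fmn2-/- mouse that shares the lane of the wild-type mice, and Psmb4 was at 0.094 and Psmb5 at -0.0054. Choroid plexus markers summed to 4106 CPM in 1 Fmn2-/- library of 3 months, against 34.2 in the lowest of that group, and their part in these values was not tested. Across 16593 genes the fold change rose with GC content (Spearman's rho 0.33) and fell with exon length (-0.22). Median exon length was 2800 bases in the members and 4154 in all genes. No member passed with a length and GC correction, and the part of composition was not tested further.

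At 8 months the balance lay the other way: 31 of 46 tested members were below their wild-type level (median log2 fold change -0.048, against 0.006 over all genes), and again none passed, where 2.13% of all genes did. An unadjusted p under 0.05 was reached by 13 members, all lower, beside 23.2% of all genes in either direction (1815 of 14665 lower). In 5 members, Psmb1, Psmb6, Psmb10, Psmd4 and Psmd9, every Fmn2-/- mouse was below every wild-type mouse (6.78% of all genes), and in 1, Psmd2, above (4.95%). DESeq2 called 5 members and a fit without the filter on low counts 6, all lower, while all genes called rose from 312 to 724 and 1324. Without wild-type replicate 2, the shallowest library, 15 passed, 13 of them lower, in a fit that called 3460 of all genes. Leaving out any other mouse of this age left none passing, in fits that called from 6 to 268 of all genes. Across 14634 genes the fold change fell with GC content (rho -0.44) and rose with exon length (0.35). With the length and GC correction no member passed, and all genes called fell to 48. With Fmn2-/- replicates 2 and 3 summed none passed either, and all genes called fell to 11. The values of single genes at this age keep these replicates as 2 mice.

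Psmb6 came closest to the threshold. It was at 137.9, 111.5 and 131.8 CPM in the wild-type mice and at 110.0, 100.7, 97.6, 98.3 and 106.9 CPM in the Fmn2-/- mice (log2 fold change -0.30, standard error 0.0792, adjusted p = 0.064). The groups did not overlap, but wild-type replicate 2 lay only just above the highest Fmn2-/- mouse. Next came Psmb2, a beta subunit without catalytic activity (-0.33, adjusted p = 0.0657), Psmd9 (-0.32, adjusted p = 0.0679), Psmb10 (-0.34, adjusted p = 0.0679), Psmb1 (-0.25, adjusted p = 0.0736) and Psme1 (-0.36, adjusted p = 0.0767). Psmb5 (-0.016, adjusted p = 0.952) and Psmb7 (0.043, adjusted p = 0.721) were within their standard errors. By role, 6 of 8 beta-ring genes (-0.33 to 0.043), all 4 core chaperones (-0.45 to -0.022), 4 of 7 alpha-ring genes (-0.21 to 0.27), 2 of 6 ATPases (-0.20 to 0.043) and 7 of 11 other cap subunits (-0.26 to 0.15) were below 0.

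Of the 32 partners 1 passed at this age, the ubiquitin gene Ubb (-0.46, standard error 0.103, adjusted p = 0.0448). Vcp, the segregase that extracts substrates, was at -0.35 (adjusted p = 0.0578), the ubiquitin receptor gene Adrm1 at -0.60 (adjusted p = 0.0672) and Zfand5 at 0.24 (adjusted p = 0.121). Markers of other cells differed at this age too. Astrocyte markers summed to 1867 to 2141 CPM in Fmn2-/- and 1582 to 1764 CPM in wild-type mice, with 2 of 5 passing as higher, and microglia markers to 279 to 315 against 240 to 270 CPM, with 0 of 6 passing. Neither sum overlapped between the genotypes. Of the granule cell markers 1 of 7 passed as lower, and of the endothelial markers 1 of 4 as higher. Oligodendrocyte markers summed to 1798 to 2588 CPM in Fmn2-/- and 2458 to 3135 CPM in wild-type mice (median log2 fold change -0.26, 0 of 5 passing). Choroid plexus markers summed to 29.1 to 604 against 72 to 221 CPM, with 0 of 5 passing. The part of these cells in the proteasome values was not tested.

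**Figure D2:**
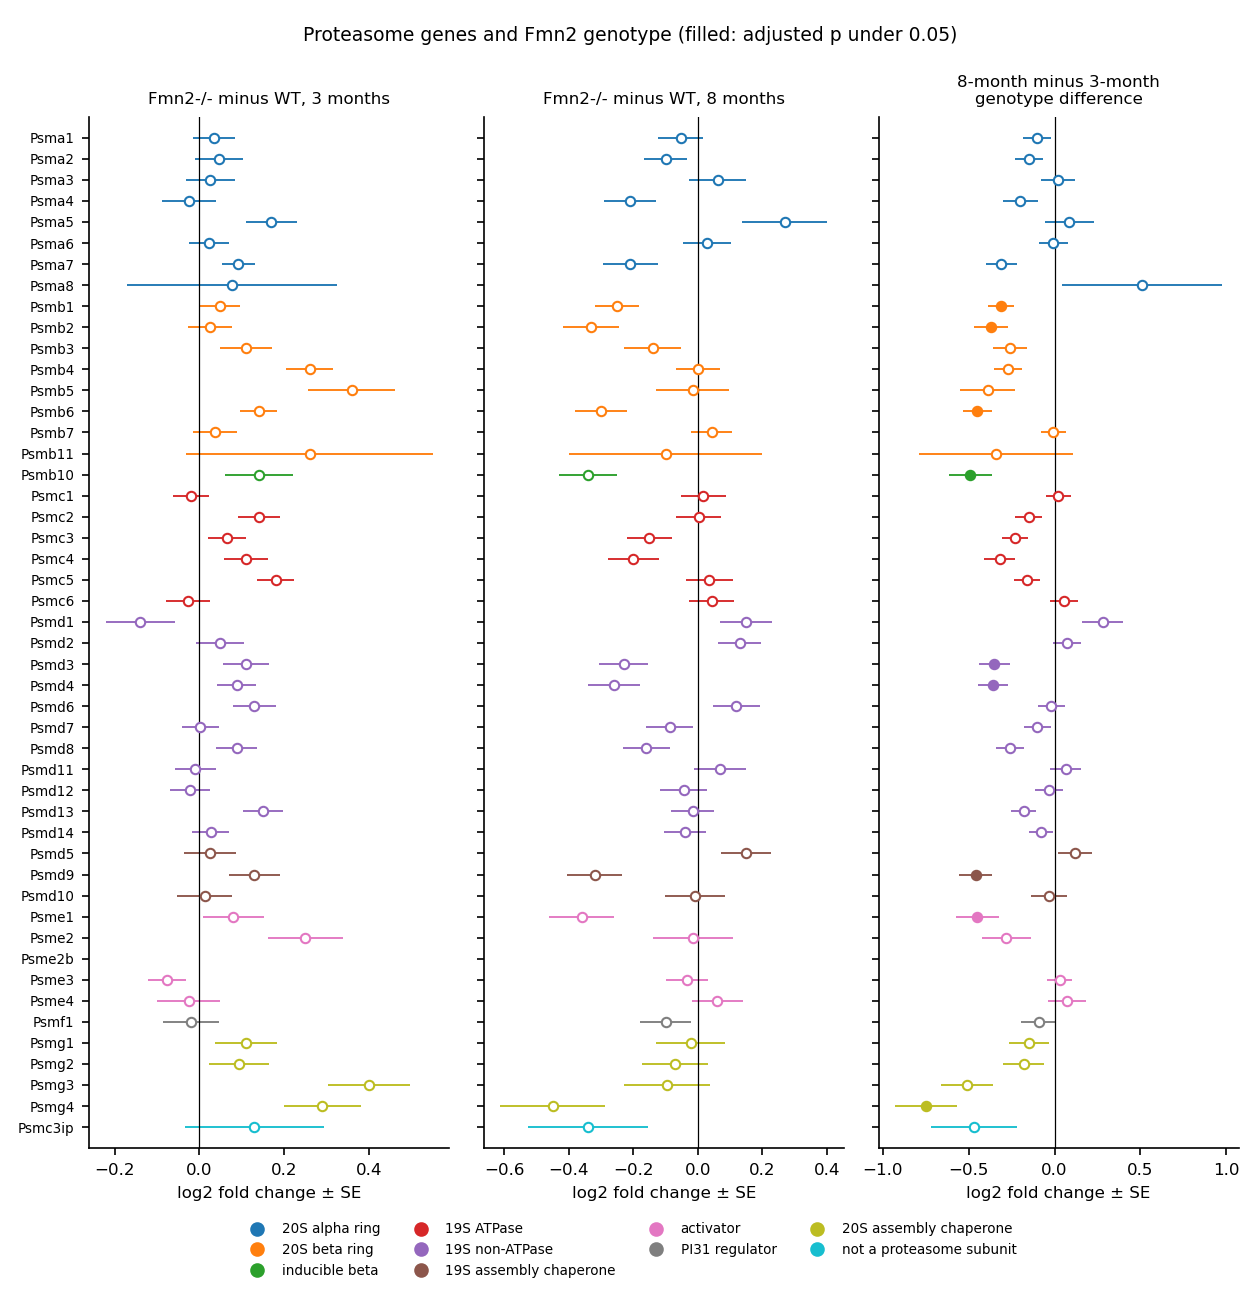
Log2 fold change ± standard error of each tested member for Fmn2-/- against wild type at 3 months (left), at 8 months (middle) and the difference between these 2 effects (right), coloured by role, filled where the adjusted p is under 0.05. All filled points are in the right panel and lie below 0, from Psmb1 at -0.31 to Psmg4 at -0.75.

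Whether the effect of the genotype changed with age was tested in 1 fit of all 18 mice. The difference was negative for 36 of 47 members (median -0.16, against -0.023 over all genes). It passed for 9 members, all of them lower (beside 3.13% of all genes), and for none in the other direction (0.804%). They were the beta-ring genes Psmb1, Psmb2 and Psmb6, the inducible Psmb10, the 19S subunits Psmd3 and Psmd4, of which the latter is a ubiquitin receptor, the chaperones Psmd9 (cap) and Psmg4 (core), and the activator subunit Psme1. All 8 beta-ring genes (-0.45 to -0.0065) and all 4 core chaperones (-0.75 to -0.15) were below 0. None of the 8 alpha-ring genes and none of the 6 ATPases passed.

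The strongest was Psmb6 (a log2 difference of -0.45 with a standard error of 0.0858, edgeR adjusted p = 0.0116), which was above wild type in each Fmn2-/- mouse at 3 months and below in each at 8 months. Psmd9 followed (-0.46, standard error 0.0981, adjusted p = 0.0176). It was at 20.9 to 23.5 CPM in wild-type and 22.2 to 25.5 in Fmn2-/- mice at 3 months, and at 25.3, 28.7 and 27.5 against 20.3 to 24.2 CPM at 8 months. The groups did not overlap at 8 months and overlapped at 3 months.

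Psmg4, a weakly expressed chaperone, was at 5.84 to 7.01 CPM in wild-type and 7.15 to 8.63 in Fmn2-/- mice at 3 months, and at 10.8, 8.49 and 10.7 against 5.37 to 9.15 CPM at 8 months (-0.75, standard error 0.179, adjusted p = 0.0273). Its groups overlapped at 8 months and not at 3 months. Psmd4 (-0.36, adjusted p = 0.0311), Psmb1 (-0.31, adjusted p = 0.0316) and Psmb10 (-0.49, adjusted p = 0.0353) complete the members with the smallest p. Psmd3 (-0.35), Psmb2 (-0.37) and Psme1 (-0.45) had adjusted p-values of 0.037, 0.045 and 0.0483. Psmb5 (-0.39, adjusted p = 0.154) and Psmb7 (-0.0065, adjusted p = 0.974) did not pass. Of the partners, Ubb (-0.59, adjusted p = 0.0136) and Vcp (-0.46, adjusted p = 0.0154) passed, both lower, ahead of the ubiquitin-activating enzyme Uba6 (0.49, adjusted p = 0.0644) and Sqstm1 (-0.23, adjusted p = 0.0898).

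This count depends on single libraries. Without wild-type replicate 1 of 8 months, the deepest library and the only one of 8 months on lane 6, no member passed, without replicate 2 of that group 16 did and without replicate 3 only 1. The genes called over the whole table moved likewise, from 671 to 8, 2847 and 99. Over all 47 members tested, 3 passed with replicates 2 and 3 of the 8-month-old Fmn2-/- mice summed (Psmb6, Psmd9 and Psmg4), 3 after the fold changes were corrected for exon length and GC (Psmb1, Psmb6 and Psmd9), and none with lane as a covariate. These fits called 244, 32 and 1 of all genes. The fold change also followed base composition across genes (Spearman's rho -0.45 with GC content and 0.32 with exon length over 17003 genes, which are not independent), while the members' median GC content was 49.7%, against 49.5% for all genes, and their median exon length 2800 bases, against 4091. The part of lane, depth and composition in the result was not tested beyond these fits. Of the cell type markers 1 of 7 for granule cells passed the interaction test, as lower, and the 5 choroid plexus markers had a median of -2.21 with none passing. None passed for cortical neurons, microglia, astrocytes, oligodendrocytes or endothelium, and the part of cell makeup in the result was not tested.

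**Figure D3:**
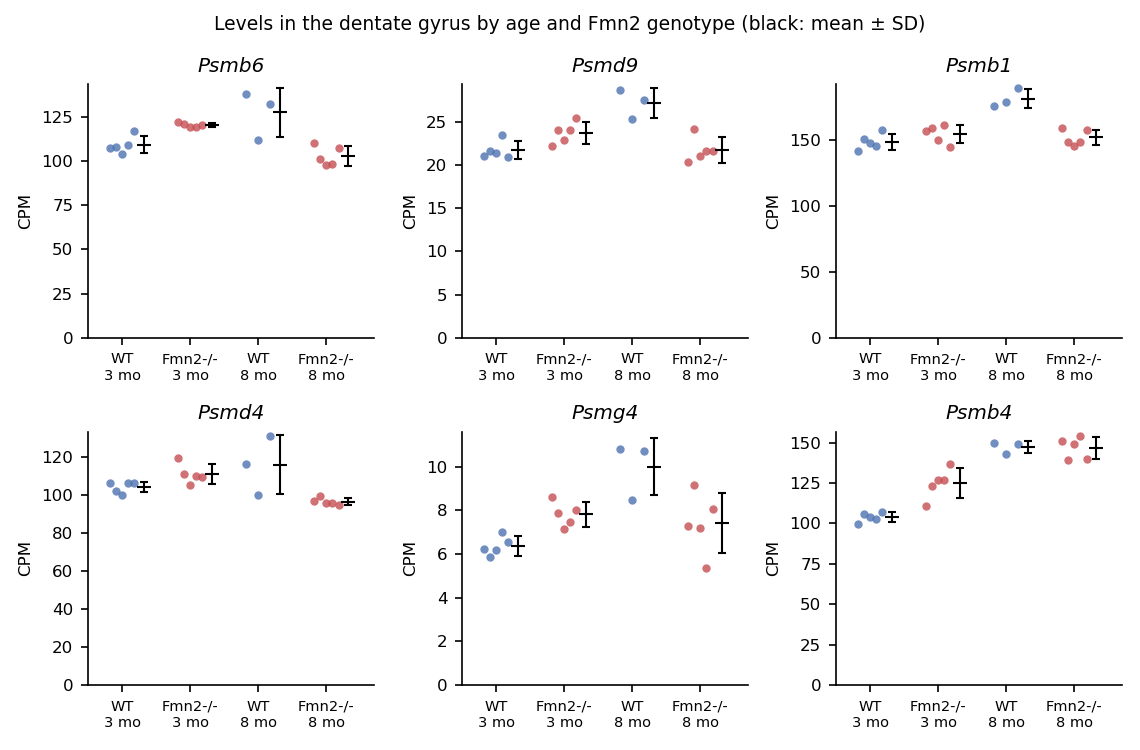
CPM of 6 members in each dentate gyrus mouse by age and Fmn2 genotype, with the group mean ± SD in black. Psmb6 is higher in Fmn2-/- than in wild-type mice at 3 months (118.7 to 121.6 against 104.5 to 116.7 CPM) and lower at 8 months (97.6 to 110.0 against 111.5 to 137.9), while Psmb4 is at 138.9 to 153.7 CPM in both genotypes at 8 months.

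Age was compared within each genotype in the same fit. The ages were sequenced almost wholly on different lanes and at different depth, so age and lane cannot be told apart, and with lane as a covariate no member passed in either genotype. In wild-type mice 16 of 47 members were higher at 8 than at 3 months (beside 6.1% of all genes) and 1 was lower (4.31%), and 11 of the 17 also reached the study's minimum of 0.25 on the log2 scale (9.23%). In Fmn2-/- mice 5 were higher (3.62%) and 6 lower (5.22%), and 4 of these 11 reached the minimum (6.49%). The comparisons of age and of genotype share these mice. Over all genes the age fold change in wild-type mice had a rho of 0.25 with GC content and -0.35 with exon length. In Fmn2-/- mice these were -0.37 and 0.04. With the length and GC correction 10 members passed in wild-type and 8 in Fmn2-/- mice, beside 1187 and 894 of all genes.

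In wild-type mice the increase was clearest for the beta subunit Psmb4, from 99.4 to 106.9 CPM at 3 months to 142.8, 148.8 and 150 CPM at 8 months (log2 fold change 0.51, standard error 0.0619, adjusted p = 6.11e-05). The ages did not overlap. Core chaperones rose too, Psmg3 by 0.71 (adjusted p = 0.00087), Psmg4 by 0.67 (adjusted p = 0.00345) and Psmg2 by 0.31 (adjusted p = 0.0384). Of the 16 core genes 7 rose (Psma3, Psma6, Psma7, Psmb1, Psmb4, Psmb5 and Psmb6) and none fell. Of the 17 cap genes 3 rose, Psmd6 (0.31, adjusted p = 0.00364), Psmd13 (0.27, adjusted p = 0.00543) and the ATPase Psmc5 (0.24, adjusted p = 0.0129).

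Among the catalytic genes Psmb5 rose by 0.46 (adjusted p = 0.0193), Psmb6 by 0.23 (adjusted p = 0.026) and the inducible Psmb10 by 0.32 (adjusted p = 0.0332), while Psmb7 was at 0.087 (adjusted p = 0.344). Psmb1 (0.29, adjusted p = 0.00332), the cap chaperone Psmd9 (0.34, adjusted p = 0.00649) and the activator subunit Psme2 (0.44, adjusted p = 0.0123) also rose. The single member that fell was the nuclear activator gene Psme3 (-0.19, adjusted p = 0.0292), from 130 ± 3.22 (SD, n = 5) to 113 ± 5.70 CPM (SD, n = 3). Of the partners 4 were higher and 2 lower, among them Rad23b (-0.38, adjusted p = 0.00218), Pomp (0.31, adjusted p = 0.00929) and Vcp (0.26, adjusted p = 0.0276). Without wild-type replicate 3 of 8 months 7 members passed, and without replicate 2 of that group 21 did, while all genes called went from 1773 to 478 and 3268.

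In Fmn2-/- mice Psmb4 rose by 0.24 (adjusted p = 0.00923), and the other members that rose were Psmd6 (0.29, adjusted p = 0.00216), Psma3 (0.26, adjusted p = 0.0141), Psma6 (0.20, adjusted p = 0.0227) and Psma5 (0.33, adjusted p = 0.0259). The members that fell were Psmb2 (-0.30, adjusted p = 0.00851), Psmb6 (-0.22, adjusted p = 0.0187), Psmd7, which pairs with the cap's deubiquitinase (-0.20, adjusted p = 0.0187), Psme3 (-0.16, adjusted p = 0.0338), Psmd4 (-0.20, adjusted p = 0.0362) and the ATPase Psmc3 (-0.17, adjusted p = 0.0375). Psmb6 was thus the only member that passed in opposite directions, higher with age in wild-type and lower with age in Fmn2-/- mice, and the test of that difference is the one given above. Psmb5 (0.076, adjusted p = 0.744), Psmb7 (0.081, adjusted p = 0.361) and Psmb10 (-0.17, adjusted p = 0.236) did not pass. Of the partners Zfand5 (0.31, adjusted p = 0.00192), Pomp (0.24, adjusted p = 0.0211) and Txnl1 (0.19, adjusted p = 0.0379) rose and Ubb (-0.41, adjusted p = 0.00288) fell. Leaving out Fmn2-/- replicate 4 of 8 months left 4 members, and summing replicates 2 and 3 left 7, while all genes called went from 1507 to 980 and 972.

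The ratio of the summed core to the summed cap was 0.57 ± 0.0158 in wild-type mice of 3 months (SD, n = 5), 0.579 ± 0.0113 in Fmn2-/- mice of 3 months (SD, n = 5), 0.626 ± 0.0104 in wild-type mice of 8 months (SD, n = 3) and 0.59 ± 0.00866 in Fmn2-/- mice of 8 months (SD, n = 5). At 8 months the wild-type mice were at 0.614 to 0.632 and the Fmn2-/- mice at 0.581 to 0.602, without overlap, while the 3-month groups overlapped. These ratios are given without a test.

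In the amyloid cross, libraries labelled FMN2-/-_APP were set against libraries labelled FMN2 +/+ APP. Of 48 members 1 passed, beside 1.56% of all genes. It was the cap chaperone Psmd9, at 26.5, 32.7 and 34.9 CPM (lowest, median and highest of 7) in the libraries labelled FMN2-/-_APP and at 21.3, 26.3 and 29.5 CPM (of 9) in those labelled FMN2 +/+ APP (log2 fold change 0.30, standard error 0.0738, edgeR adjusted p = 0.0472). The groups overlapped, and Psmd9 lost the threshold in 14 of 16 fits without 1 mouse (adjusted p up to 0.0908), with lane as a covariate, with the length and GC correction and without the filter on low counts. The lane fit counted the summed replicate 7 of each label as lane 7. Most of the reads of both came from lane 4 (27160440 against 14442856 on lane 7, and 25447381 against 13956011). Since Fmn2 is low in the libraries labelled FMN2 +/+ APP, no genotype is attached to the direction.

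The next members were Psme3 (0.10, adjusted p = 0.196), Psmd11 (0.13, adjusted p = 0.229), Psma4 (-0.18, adjusted p = 0.274), Psmc4 (0.11, adjusted p = 0.309) and Psmc1 (0.14, adjusted p = 0.312). The catalytic genes Psmb5 (0.053), Psmb6 (0.039) and Psmb7 (-0.16) and the inducible Psmb10 (-0.13) had adjusted p-values from 0.396 to 0.91. All 6 ATPases (0.02 to 0.14) and 9 of 11 other cap subunits were above 0, against 8 of 16 core genes. None of the 32 partners passed, with the ubiquitin-activating enzyme Uba1 (0.13, adjusted p = 0.146), Ubqln4 (0.13, adjusted p = 0.155), Zfand5 (-0.17, adjusted p = 0.167) and Rad23b (0.17, adjusted p = 0.202) closest. Core levels varied widely between these mice, from 1099 to 1678 CPM under the label FMN2-/-_APP and from 1154 to 1510 under FMN2 +/+ APP, and 1 library labelled FMN2 +/+ APP held 9066 CPM of choroid plexus markers, whose part was not tested. Psmb5 was at 30.6 ± 8.62 (SD, n = 7) and 29.4 ± 5.04 CPM (SD, n = 9).

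In the libraries with PFC in the title the APP mice were set against wild-type mice. Core sums were 779 ± 59.1 CPM in APP and 761 ± 40.2 CPM in wild-type mice, and cap sums 1685 ± 94.1 and 1680 ± 74.6 CPM (SD, n = 6 each). The 14 core genes tested lay between -0.032 and 0.094 on the log2 scale and the 17 cap genes between -0.056 and 0.071. Of 45 members tested (not Psma8, Psmb11 or Psme2b) 1 passed, beside 3.77% of all genes. It was Psme1, a subunit of the interferon-responsive activator ring, which had 28.2, 30.2 and 31.5 CPM (lowest, median and highest of 6) in APP mice and 19.2, 23.1 and 24.9 CPM in wild-type mice, without overlap (log2 fold change 0.41, standard error 0.0613, adjusted p = 0.000153). Psme1 passed in each of 12 fits without 1 mouse (0.37 to 0.44) but lay under the study's minimum of 0.5 on the log2 scale.

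Its partner in the ring, Psme2, was at 7.08, 8.95 and 10.4 CPM in APP and 6.10, 7.49 and 9.29 CPM in wild-type mice (0.24, standard error 0.111, adjusted p = 0.34). The groups overlapped. The inducible catalytic genes outside the family rule rose, Psmb8 from 1.72 ± 0.382 to 3.56 ± 1.02 CPM (SD, n = 6 each; log2 fold change 1.06, edgeR adjusted p = 0.00105) and Psmb9 from 1.47 ± 0.224 to 3.01 ± 1.06 CPM (SD, n = 6 each; 1.03, edgeR adjusted p = 0.00278), both without overlap. The third inducible subunit, Psmb10, was at 35.2 ± 1.65 in wild-type and 33.4 ± 3.84 CPM in APP mice (SD, n = 6 each; -0.064, standard error 0.0674, adjusted p = 0.76). Whether Psmb10 differs from Psmb8 and Psmb9 in its response was not tested.

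**Figure D4:**
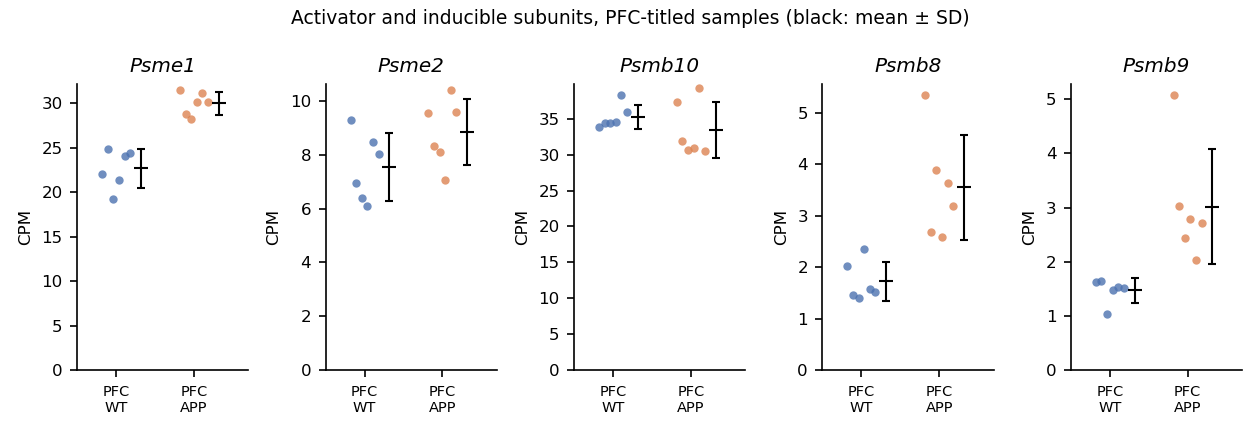
CPM of the activator subunits Psme1 and Psme2 and of the inducible subunits Psmb10, Psmb8 and Psmb9 in the 6 wild-type and 6 APP mice with PFC in the title, with the mean ± SD in black. Psme1, Psmb8 and Psmb9 do not overlap between the groups, whereas Psme2 and Psmb10 do.

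Markers of glial cells differed between these groups too, and not all in the same direction. All 6 microglia markers passed as higher in APP mice (summed 407 to 530 against 263 to 288 CPM), as did all 5 markers of plaque-associated microglia (140 to 194 against 23.6 to 28.6 CPM), with none of the 5 at 0. Astrocyte markers summed to 1095 to 1286 CPM in APP and 884 to 1019 CPM in wild-type mice, without overlap, and 2 of 5 passed as higher. Oligodendrocyte markers were lower, at 1256 to 1927 CPM in APP and 2061 to 5882 CPM in wild-type mice, without overlap. Their median log2 fold change was -0.79 and none of 5 passed. The part of these cells in the rise of Psme1, Psmb8 and Psmb9 was not tested. All APP libraries were sequenced on lane 7 and all wild-type libraries on lane 5, so lane and genotype cannot be told apart.

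Of the standard catalytic genes, Psmb5 was at -0.0013 (standard error 0.125), Psmb6 at -0.023 (standard error 0.071) and Psmb7 at 0.046 (standard error 0.0608) on the log2 scale. After Psme1 the smallest p belonged to the core chaperone Psmg2 (0.23, adjusted p = 0.146), Psme4, the activator of nuclear and sperm proteasomes (-0.14, adjusted p = 0.17), Psme2, Psma1 (0.094, adjusted p = 0.356) and Psma6 (0.091, adjusted p = 0.477). Among the partners Nfe2l2, the gene of the oxidative stress factor NRF2, also rose (0.49, adjusted p = 0.000816), and Usp14, a deubiquitinase of the cap, was next (0.13, adjusted p = 0.104).

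A comparison of tissues set the 6 wild-type mice with PFC in the title against the 5 wild-type mice of 3 months from the dentate gyrus. Experiment, labelled age and tissue cannot be told apart here. Proteasome genes were mostly lower in the PFC libraries: of 46 members 32 were lower (beside 38.4% of all genes) and 8 higher (36.2%), with a median log2 fold change of -0.48 against -0.0094 over all genes, and 22 passed with a minimum change of 0.5 (45%). The core sum was 761 ± 40.2 (SD, n = 6) against 1131 ± 30.9 CPM (SD, n = 5), the cap sum 1680 ± 74.6 against 1984 ± 13.1 CPM, and the ratio of both 0.453 ± 0.0113 against 0.57 ± 0.0158. With the length and GC correction the median was -0.26 and 40 members passed, 9 higher and 31 lower, of which 36 were shared with the fit above.

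Of the 15 core genes tested 12 were lower. Psmb2 was at 44.7 to 52.7 CPM in the PFC libraries and 89.8 to 96.2 in the dentate gyrus (log2 fold change -1.0, standard error 0.0438, adjusted p = 9.35e-12), and Psma4 at 42.0 to 45.8 against 80.7 to 93.6 CPM (-0.99, standard error 0.0444, adjusted p = 1.13e-11). The ranges are far apart for both genes. Psma2 (-0.81, adjusted p = 2.52e-10), Psma1 (-0.67, adjusted p = 6.43e-10), Psmb1 (-0.75, adjusted p = 1e-09) and the ATPase Psmc6 (-0.70, adjusted p = 1.74e-10) followed. Of the catalytic genes, Psmb6 (-0.80, adjusted p = 1.33e-09) and Psmb7 (-0.57, adjusted p = 1.96e-08) were lower, but Psmb5 was higher (0.45, standard error 0.109, adjusted p = 0.00143), as was Psmb10 (0.34, adjusted p = 0.000224).

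In the cap 12 of 17 genes were lower and 2 higher, the ATPase Psmc5 (0.19, adjusted p = 0.00155) and Psmd3 (0.27, adjusted p = 3.81e-05). Of the cap chaperones Psmd5 and Psmd10 were lower and Psmd9 higher (0.17, adjusted p = 0.00995). Psme1 and Psme3 were lower, whereas the activator gene Psme4 (0.36, adjusted p = 4.75e-06) and the PI31 gene Psmf1 (0.24, adjusted p = 0.00207) were higher. Of the core chaperones Psmg1, Psmg2 and Psmg4 were lower and Psmg3 higher (0.35, adjusted p = 0.00211). Psmb11 and Psmc3ip passed as lower at low counts, 2 to 7 and 20 to 46 per PFC library, and their fold changes are not given. Of the 32 partners 10 were higher and 17 lower, among them the shuttle gene Ubqln4 (0.70, adjusted p = 2.19e-10), which was higher, with Sem1 (-0.67, adjusted p = 2.5e-09) and Ubb (-0.65, adjusted p = 1.33e-08) lower.

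**Figure D5:**
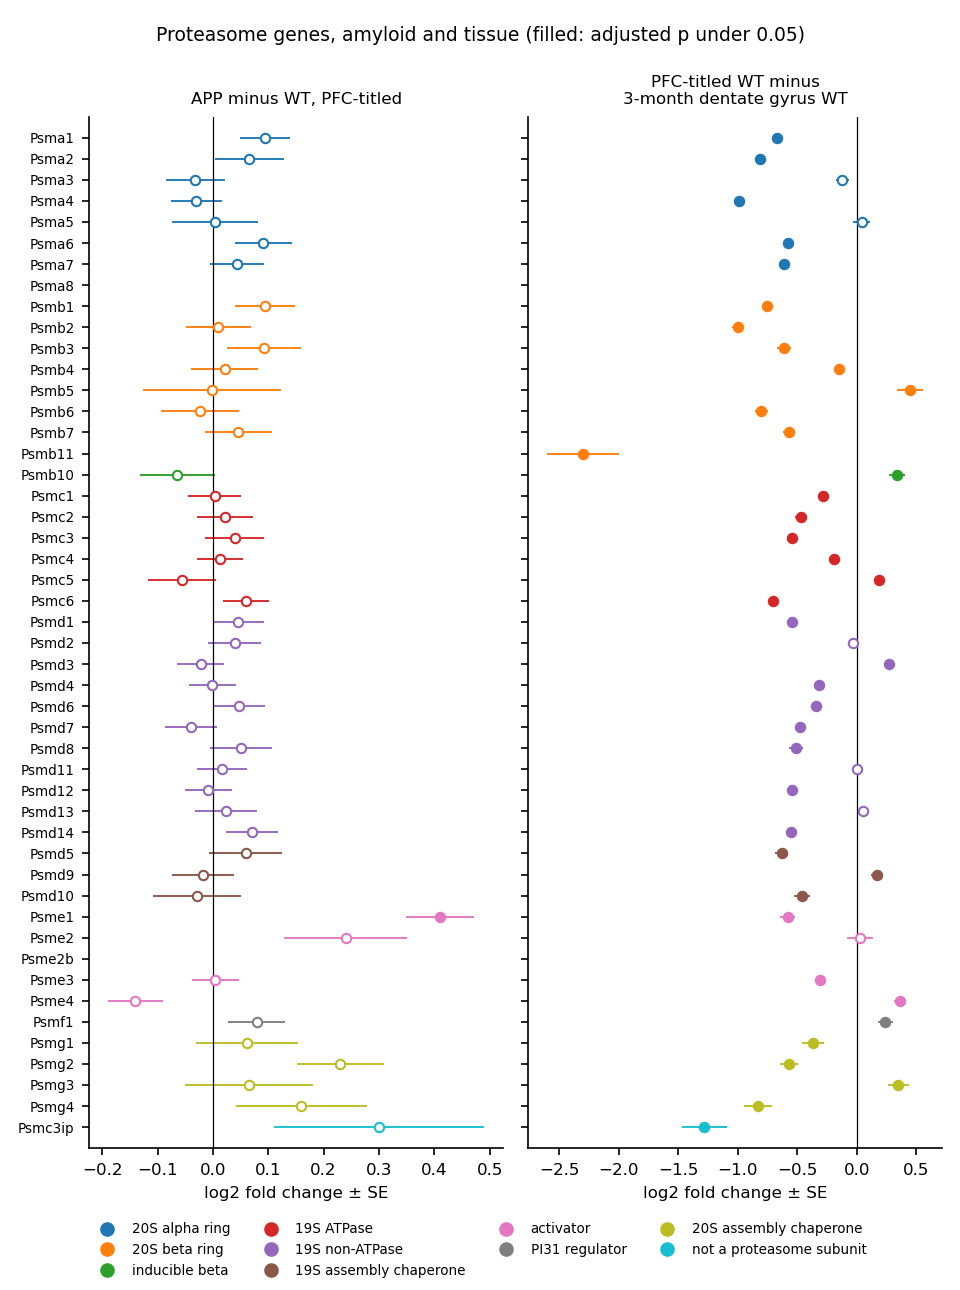
Log2 fold change ± standard error of each tested member for APP against wild-type mice with PFC in the title (left) and for wild-type mice with PFC in the title against 3-month-old dentate gyrus (right), coloured by role, filled where the adjusted p is under 0.05. On the left only Psme1 is filled, at 0.41, and on the right 32 filled points lie below 0 and 8 above.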

How the data were processed

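Per the labels, RNA was isolated with TRIZOL from whole tissue and sequenced after a TruSeq preparation. The authors aligned the reads to mm10 with STAR, counted them per gene with HTSeq (intersection-nonempty) and deposited raw counts for 48709 genes. Strand use in counting is not given in the sources used here. Samples were grouped by their genotype, age and title, and the 2 runs of replicate 7 in each cross group were summed, which left 46 samples from 48 runs. Each comparison was fitted on its own samples with edgeR 4.0.16 (R 4.3.3, limma 3.58.1): TMM scaling, filterByExpr, robust quasi-likelihood test, Benjamini-Hochberg adjustment over all genes tested, threshold 0.05. The interaction and both age contrasts came from 1 fit of 18 mice. Printed CPM use a TMM scaling over all 46 samples. The test scripts were checked on simulated data. Alternatives were DESeq2 1.42.0, RLE size factors, no filter, a length and GC correction, a replicate block, lane, the study's fold minimum, and each mouse left out. The members and lists were chosen with earlier results of these data known. Named were the catalytic genes and Psmb10, the 6 members with the smallest p in each comparison, the highest and lowest of each role and the 4 partners with the smallest p, of which 1 is not reported here. Nothing says that replicates came from separate litters, so p-values measure only the spread between these samples. A partner listed as Paaf1 was not matched by symbol.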

Additional observations from a re-analysis of the deposited data

Results flagged for a closer look

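In the main fit the interaction test called 9 members, all with a lower genotype difference at 8 than at 3 months (beside 3.13% of all genes). They were Psmb6 (-0.45 on the log2 scale), Psmd9 (-0.46), Psmg4 (-0.75), Psmd4 (-0.36), Psmb1 (-0.31), Psmb10 (-0.49), Psmd3 (-0.35), Psmb2 (-0.37) and Psme1 (-0.45). None passed with lane as a covariate or without wild-type replicate 1 of 8 months. With the length and GC correction 3 passed, and 3 with Fmn2-/- replicates 2 and 3 of 8 months summed.

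In 119 groups of values 9 values stood apart from the rest of their group by Dixon's criterion, which chance flags in about 1 of 20. The 8-month-old wild-type mice were too few for this criterion and were not checked. Fmn2-/- replicate 1 of 3 months, the library on the lane of the wild-type mice, had the highest ratio of core to cap in its group (0.599) and the lowest Psmb10 (26 CPM). In wild-type replicate 4 of that age Psmd9 was highest, at 23.5 CPM. Replicate 2 labelled FMN2-/-_APP had the highest ratio (0.71) and the highest Psmb5 (49.7 CPM). Under the label FMN2 +/+ APP, replicate 8 had the lowest Psmb10 (12.3 CPM), and replicate 9 the highest Psmd11 (61.6 CPM) and Psma4 (96.2 CPM). Psmb5 was highest in wild-type replicate 6 with PFC in the title, at 26.5 CPM. In the rest of these groups no sample met the criterion.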

How the results depend on the processing

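Counts are members passing an adjusted p of 0.05. Without 1 mouse they ranged from 0 to 2 for the genotype at 3 months, 0 to 15 at 8 months, 0 to 16 for the interaction, 7 to 21 for age in wild-type and 4 to 11 in Fmn2-/- mice, 0 to 1 in the cross, 1 to 1 for APP and 40 to 41 between tissues. At 8 months these fits called from 6 to 3460 of all genes. For the interaction they called 8 without wild-type replicate 1 of 8 months and 2847 without replicate 2. DESeq2 gave 3 at 3 months, 5 at 8 months and 15 for the interaction. It called 142, 724 and 1472 of all genes there, in place of 6, 312 and 671. Without the filter there were 6 at 8 months, 8 for age in wild-type and 5 in Fmn2-/- mice, 0 in the cross and 2 for APP. All genes called were 1324, 1096, 1137, 184 and 740 there, in place of 312, 1773, 1507, 260 and 630. The length and GC correction gave 3 for the interaction, 10 for age in wild-type mice and 0 in the cross. It called 32, 1187 and 374 of all genes there. Lane as a covariate gave 0 for the interaction, for age in either genotype and in the cross. Those fits called 1 of all genes for the interaction, 58 for age in wild-type mice, 0 in Fmn2-/- mice and 343 in the cross. Summing Fmn2-/- replicates 2 and 3 of 8 months gave 3 for the interaction and 7 for age in Fmn2-/- mice, beside 244 and 972 of all genes. The study's fold minimum gave 11 and 4 for age in wild-type and Fmn2-/- mice, 0 in the cross, 0 for APP and 22 between tissues. With that minimum 1574, 1107, 125, 385 and 7492 of all genes passed. The cause of these shifts was not tested. No named member that passed under a setting changed its sign there.

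Same-numbered mice correlated in their deviations with r from -0.0534 to 0.1165 at 3 months, -0.0398 to 0.0118 at 8 months, -0.1406 to 0.2639 in the cross and -0.0621 to 0.1473 for APP. The mean r was 0.042, -0.00927, 0.078 and 0.029. Between mice with different numbers it was -0.00792, 0.00235, -0.00989 and -0.00575. With only 4, 3, 7 and 6 pairs these values cannot settle whether the numbers pair the mice, and the main fits leave them unpaired. The replicate block was fitted only to mice whose number occurs in both groups. Outside the APP comparison, fewer mice and the block cannot therefore be told apart. With the block 0 members passed at 3 months, 0 at 8 months, 1 in the cross and 1 for APP, beside 2, 5, 267 and 556 of all genes. With the block and the length and GC correction 0 passed in the cross, beside 299 of all genes.

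The shallow libraries (6818809 to 11675280 reads for all but 1 mouse) limit weakly expressed members at 8 months, such as Psmg3 and Psmg4. Psma8, Psmb11 and Psme2b lie near the limit of detection.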
